A study of Mus musculus with 6 samples.

Results

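The LIM homeobox genes encode transcription factors that join a pair of LIM zinc fingers to a DNA-binding homeodomain. The set described here holds 10 of the 21887 protein-coding genes in the RefSeq gene table, chosen by name as family members: Lhx1, Lhx2, Lhx3, Lhx4, Lhx5, Lhx6, Lhx8, Lhx9, Isl2 and Lmx1a. For each, the peaks that overlapped the gene record or the 10 kb on either side of it were taken, an interval called the window below. The cells were P19, an embryonal carcinoma line of the mouse that can be turned into neural or muscle cells but was grown here in its proliferation medium, without a differentiating agent named in the labels. Native chromatin was precipitated with 1 antibody to crotonylated lysine 9 of histone H3 (H3K9cr) and 1 to acetylated lysine 9 (H3K9ac), with 2 biological replicates each and no perturbation, so the comparison was between marks in the same line. With a single antibody per mark, the mark and the antibody cannot be told apart, and in bulk chromatin fewer marked cells and less mark per cell cannot be told apart either. The series title names the profiling of the 2 marks, and the question taken up was where each lay at these genes and whether the marks differed there by more than replicates did.

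Both modifications neutralise the charge of the lysine and are known from the starts and enhancers of active or poised genes. LIM homeodomain proteins act in complexes with the adaptor Ldb1, and combinations of them set neuronal identity, for which they are often described as a code. In undifferentiated cells many of these loci are known as targets of Polycomb repression with chromatin that also carries marks of activity. Most of the genes come in paralogue pairs, and the account below follows those pairs.

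The lists held 26096 to 28360 peaks, and their read depth is unknown, which leaves no counting interval to state. Each peak is described by its length, by the authors' fold enrichment and by the percentile of its summit pileup (coverage at the summit) within its own list, where 100 is the highest peak. Sites below the authors' threshold are not in the lists, and the lack of a peak is therefore not evidence that the mark was lacking. Longer lists place a given peak at a higher percentile, and the H3K9cr lists were the longer ones. As a check of the labelled cell type, the pluripotency genes Pou5f1, Sox2, Nanog, Lin28a and Utf1 had peaks in every library at 5 of 5. The same held for 71.3% of all protein-coding genes. The median highest percentile of the 5 genes was 81.7 to 86.1 over the libraries. For all genes with a peak in every library it was 77.8 to 79.9. Nanog lay lower, at 68.8 and 66.9 for H3K9cr and 63.7 and 62.9 for H3K9ac. The check is therefore weak.

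The sequences before 6 annotated starts are printed first, because they hold the extremes of what was found at the starts of these genes. Lhx1 has the most CpG dinucleotides, Lhx8 and Lhx9 the fewest, the start of Isl2 lies in a gap between peaks, and the 2 starts of Lhx3 differ in their peaks. Each line gives the 250 bases before the start, 5′ to 3′ on the gene's strand, from RefSeq in build GRCm38.p6, and the capitals mark CpG dinucleotides.
Lhx1 (chr11:84525535-84525784, minus strand): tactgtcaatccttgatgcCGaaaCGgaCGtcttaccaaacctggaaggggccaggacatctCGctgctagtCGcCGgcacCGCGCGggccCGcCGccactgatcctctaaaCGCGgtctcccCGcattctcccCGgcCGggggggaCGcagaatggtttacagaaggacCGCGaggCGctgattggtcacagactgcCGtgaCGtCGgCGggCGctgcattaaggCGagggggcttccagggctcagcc
Lhx3, start at the end of the record (chr2:26208250-26208499, minus strand): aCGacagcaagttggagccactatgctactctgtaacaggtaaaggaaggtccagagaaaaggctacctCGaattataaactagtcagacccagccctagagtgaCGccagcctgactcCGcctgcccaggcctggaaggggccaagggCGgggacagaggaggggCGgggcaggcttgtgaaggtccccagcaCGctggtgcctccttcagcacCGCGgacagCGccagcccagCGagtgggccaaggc
Lhx3, start inside the record (chr2:26206576-26206825, minus strand): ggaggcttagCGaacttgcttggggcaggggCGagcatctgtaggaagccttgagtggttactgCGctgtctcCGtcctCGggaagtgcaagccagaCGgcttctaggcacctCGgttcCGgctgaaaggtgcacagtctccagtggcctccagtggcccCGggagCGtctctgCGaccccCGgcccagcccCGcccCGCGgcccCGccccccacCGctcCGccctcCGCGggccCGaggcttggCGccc
Lhx8 (chr3:154330561-154330810, minus strand): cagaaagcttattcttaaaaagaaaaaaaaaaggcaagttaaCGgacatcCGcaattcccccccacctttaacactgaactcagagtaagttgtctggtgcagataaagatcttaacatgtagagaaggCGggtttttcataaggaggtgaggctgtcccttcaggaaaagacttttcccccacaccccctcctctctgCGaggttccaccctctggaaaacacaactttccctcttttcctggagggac
Lhx9 (chr1:138842445-138842694, minus strand): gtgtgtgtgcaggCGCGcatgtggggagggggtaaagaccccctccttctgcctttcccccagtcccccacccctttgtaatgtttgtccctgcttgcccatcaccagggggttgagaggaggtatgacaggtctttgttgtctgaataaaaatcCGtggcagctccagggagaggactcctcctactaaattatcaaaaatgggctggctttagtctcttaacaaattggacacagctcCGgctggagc
Isl2 (chr9:55540899-55541148, plus strand): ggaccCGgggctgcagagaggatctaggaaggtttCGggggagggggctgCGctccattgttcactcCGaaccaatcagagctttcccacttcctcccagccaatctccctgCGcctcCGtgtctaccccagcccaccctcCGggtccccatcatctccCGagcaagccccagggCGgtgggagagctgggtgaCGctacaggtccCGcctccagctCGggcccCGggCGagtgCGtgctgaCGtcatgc

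All 10 genes carried both marks. A peak of each of the 4 libraries lay in the window at 10 of 10, whereas the same held for 71.3% of all protein-coding genes and for 80.5% of those whose record was as long as the shortest to the longest member. At 0 of 10 genes did both libraries of one mark have a peak and neither of the other, and such genes are rare in general (0.233% for H3K9cr alone and 0.0457% for H3K9ac alone). The members are not replicates of one another, and no test was made over them.

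The pattern common to these genes was several peaks, most of them in the lower part of their lists. The median percentile of all peaks in the windows was 35.1 and 34.75 in H3K9cr replicates 1 and 2. In H3K9ac replicates 1 and 2 it was 30.7 and 36.5. When overlapping peaks were joined across libraries, the 10 windows held 43 regions, and 37 of them had peaks from all 4 (86.0%, compared with 73.8% of regions in the genome). Regions shared by all 4 libraries numbered 3 or more at 7 of 10 genes, and 17.0% of all genes reached that number, or 18.0% of genes in the members' range of length. The other 3 genes, Lhx6, Lhx8 and Isl2, had 2 such regions each, the longer of which measured 3749, 3705 and 6199 bp. The median length of DNA covered by peaks, averaged over libraries, was 5135 bp for the members and 2883 bp for all genes with a peak in every library. Over the same genes the median share of the window that was covered was 11.7% and 5.86%. Only Lhx3 fell below the median of all genes in covered length.

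The highest peak of a window was, by contrast, lower in its list at these genes than at most. Its median percentile over the members was 51.3, 47.2, 49.5 and 48.6 in H3K9cr replicates 1 and 2 and H3K9ac replicates 1 and 2, the order in which 4 values are given throughout. For all genes with a peak in every library the medians were 79.7, 79.9, 77.8 and 79.3. Lhx3, Lhx5, Lhx6, Lhx8 and Lhx9 stayed below the 50th percentile in every library, as 11.0% of all such genes did. Lhx1 alone lay above the general median, through a peak at a neighbouring gene that is described below.

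**Figure D1:**
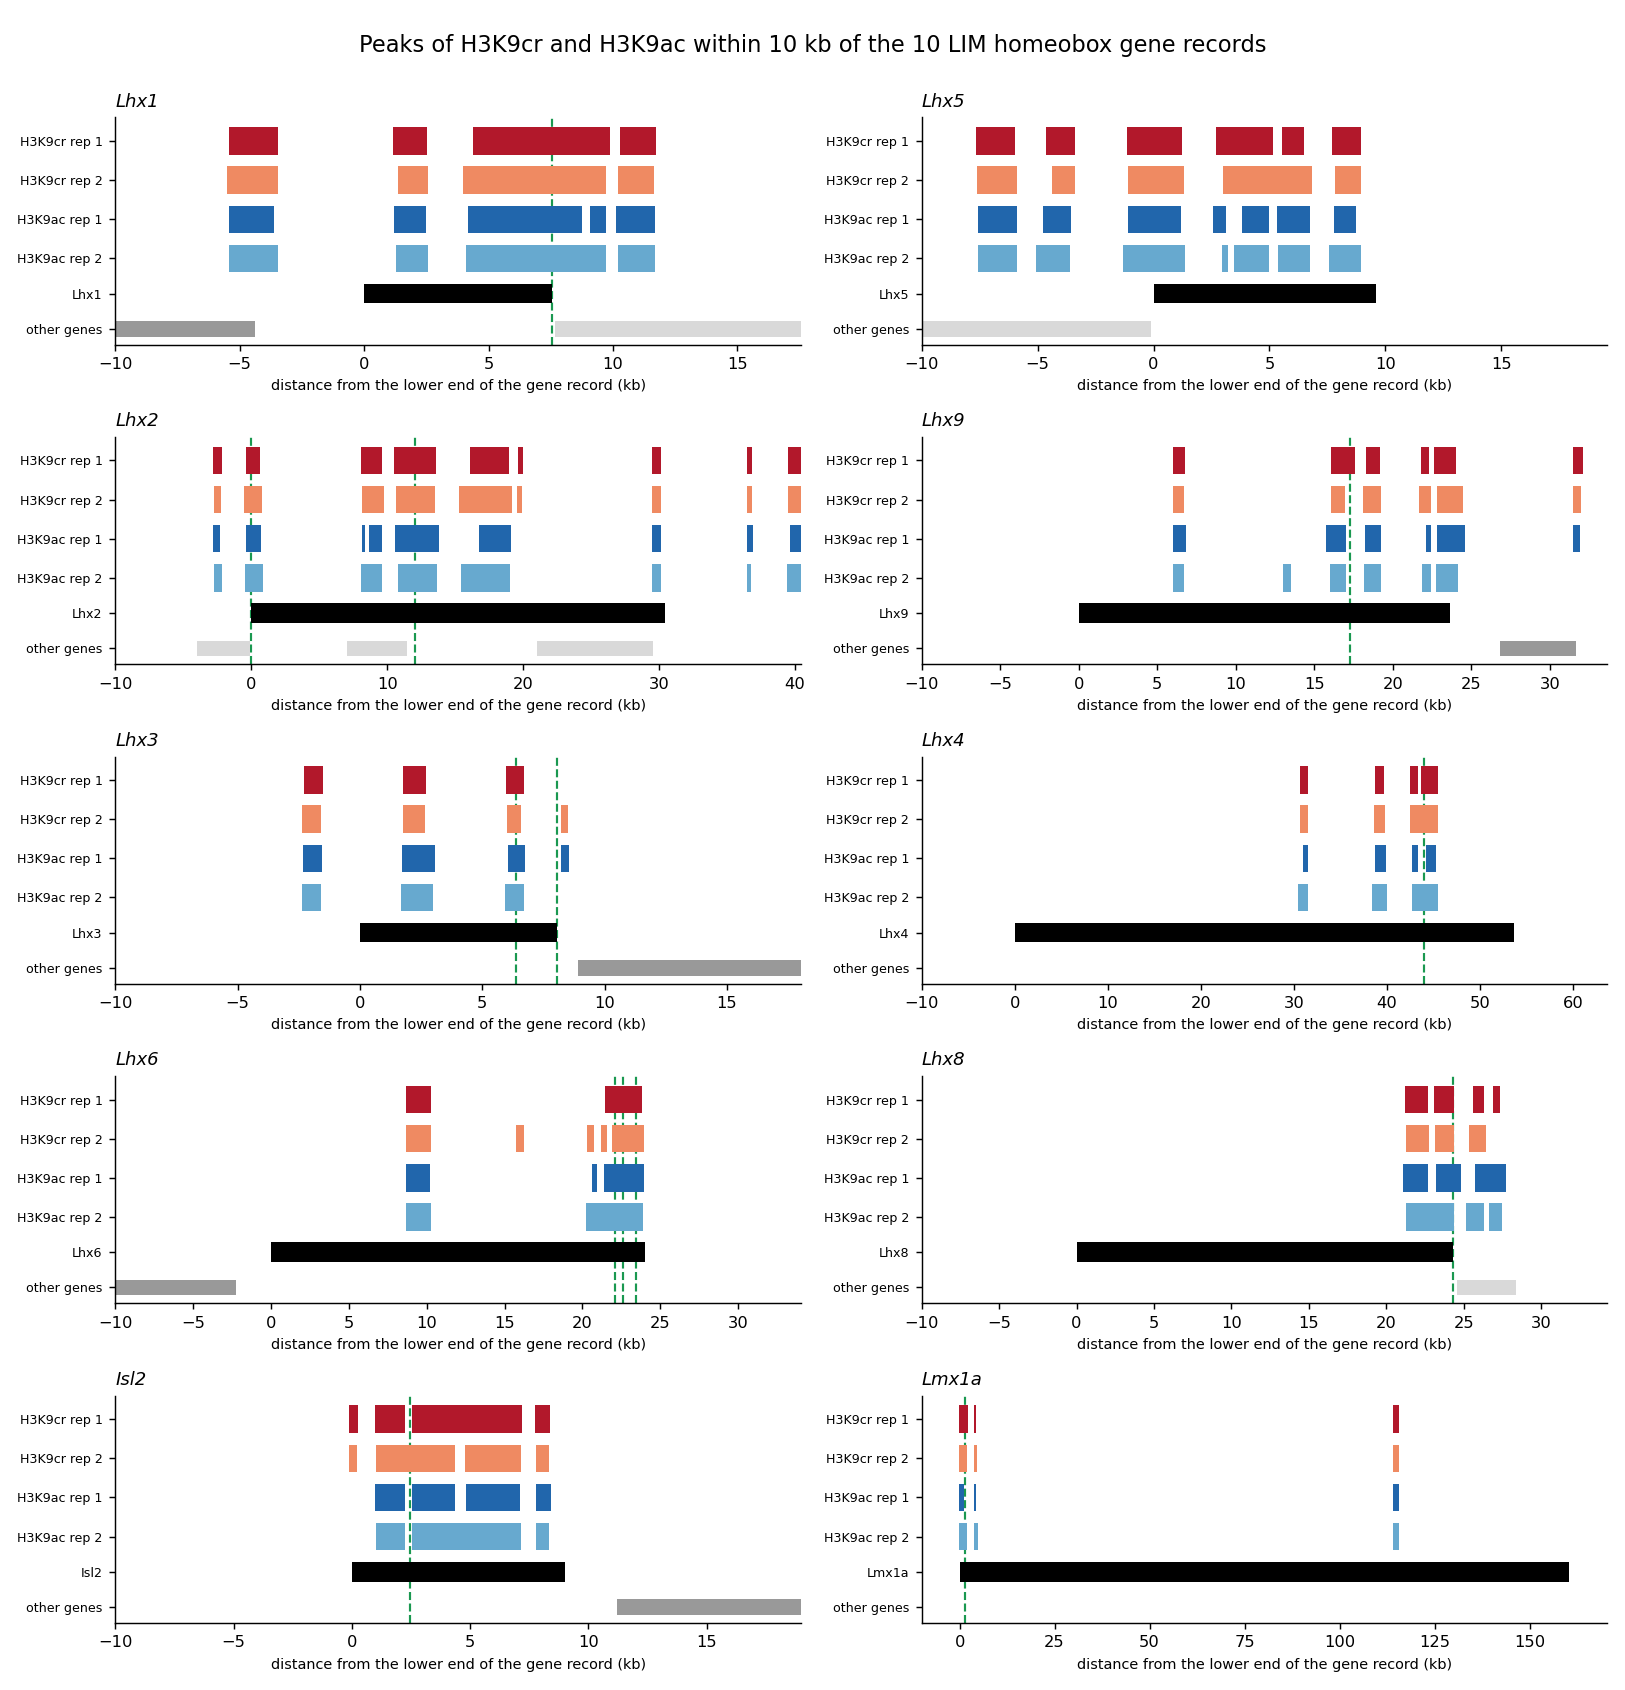
Peaks of each library (coloured bars, 1 row per library) in the windows of the 10 genes, by distance in kb from the lower-coordinate end of the gene record (black). Grey bars are other gene records (dark, protein-coding; light, noncoding) and dashed green lines are annotated starts. Nearly every bar recurs in all 4 rows, and 37 of 43 merged regions had a peak in every library.

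**Figure D2:**
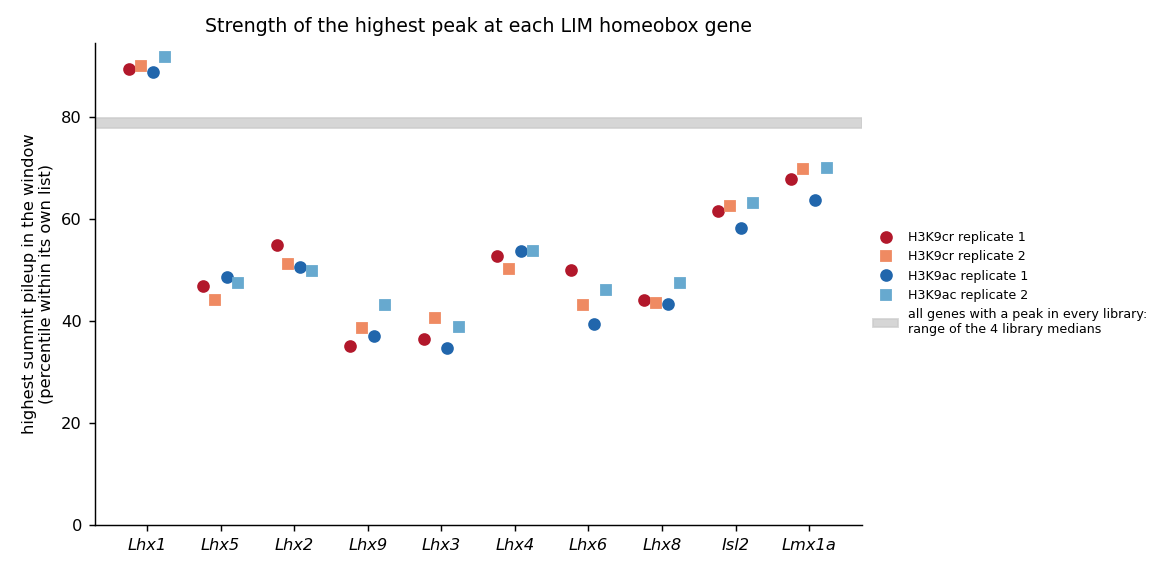
Percentile of the highest summit pileup in each window within its own list, by gene, with 1 point per library. The grey band spans the library medians of all protein-coding genes with a peak in every library, 77.8 to 79.9, and the points of every gene but Lhx1 lie below it.

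Lhx1, also called Lim1, is needed for formation of the head and the kidney and marks spinal interneurons (chromosome 11, 84517975 to 84525534, GRCm38, minus strand). Its window had 4 regions, all shared, and peaks covered 10279, 10434, 9855 and 10298 bp, which is 35.8% to 37.9% of the window with a peak at a neighbouring gene included. The highest peak, at percentiles 89.4, 89.9, 88.8 and 91.7 with fold enrichments of 49.2, 104, 69.3 and 128, lay over the start of Aatf, a protein-coding gene whose record ends 4390 bp from that of Lhx1. At the start of Lhx1 itself a region of 5916 bp stood at 53.2, 53.7, 54.5 and 55.5, a spread over libraries much smaller than the gap to the Aatf peak. This region also held the start of the noncoding Lhx1os, and the peak over it reached 5526, 5731 and 5602 bp in H3K9cr replicates 1 and 2 and H3K9ac replicate 2. Those were the longest member peaks of their lists, longer than about 99.3% of peaks in H3K9cr replicate 1. The 250 bases before the start, shown first above, held 26 CpG dinucleotides, compared with a median of 10 over the 21263 start windows of protein-coding genes.

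Lhx5, the paralogue of Lhx1 in forebrain and hippocampus (chromosome 5, 120431886 to 120441457), had 5 regions, all shared. Peaks covered 9873, 10081, 9305 and 10330 bp, or 31.5% to 34.9% of the window. The highest peak was lower, at 46.9, 44.2, 48.6 and 47.4, and spanned the lower-coordinate end of the record. A region of 4253 bp inside the gene was called as 2 peaks, 1 peak, 3 peaks and 3 peaks, so the number of peaks in the window varied from 5 to 7. Both regions outside the record lay beyond its lower end, over the noncoding genes Gm27199 and Gm31976. Sequences before starts were matched for 9 of the 10 genes, and none was matched for Lhx5.

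Lhx2, which is required for the eye, the forebrain and hair follicle stem cells (chromosome 2, 38339271 to 38369737, plus strand), had the most regions of any member, with 8 of 9 shared. Peaks covered 11581, 12670, 10391 and 12097 bp, also the most of any member. The highest peak, at 55.0, 51.2, 50.5 and 49.9, had its summit 17616 to 18263 bp into the gene (the region at 38354544 to 38358470), past the second of the 2 annotated starts. The first start stood at 37.1, 45.2, 39.5 and 40.1 and the second at 46.1, 48.9, 45.0 and 46.4, so in each library the second start had the higher peak. Starts of the noncoding genes Gm46736 and Gm27197 lay in these 2 regions as well. Of the 2 starts the first had 4 copies of the GC box GGGCGG on either strand and the second 0, with 25 and 24 CpG dinucleotides. The 1 region that was not shared (38358825 to 38359261) had H3K9cr peaks at percentiles 7.86 and 4.37, near the bottom of their lists, and no H3K9ac peak.

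Lhx9, the paralogue of Lhx2 that is needed for the gonads (chromosome 1, 138825186 to 138848839, minus strand), had 5 shared regions of 7, with peaks of lower rank. The highest stood at 35.1, 38.5, 37.1 and 43.1, and covered length was 5647, 5722, 5760 and 5290 bp. The annotated start lay at the edge of a region: a peak reached it in H3K9cr replicate 1, while in the other libraries the nearest peak ended 301, 230 and 244 bp short of it. Its 250 bases held 4 CpG dinucleotides, and 8.73% of start windows with fewer than 5 had a peak in all 4 libraries. A further region of 1950 bp spanned the higher-coordinate end of the record, where this minus-strand record begins, at 32.9, 31.4, 37.1 and 33.8. The 2 regions that were not shared held peaks at percentiles of 8.70 or less, 1 of them at the start of the protein-coding neighbour 2310009B15Rik (3139 bp from Lhx9) in 3 libraries.

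Lhx3 and Lhx4 act together in the pituitary and in motor neurons. Lhx3 (chromosome 2, 26200212 to 26208249, minus strand) had the least covered DNA of the members, 2434, 2464, 3150 and 2830 bp, and its highest peak, inside the gene, stood at 36.5, 40.6, 34.6 and 38.7. The protein-coding Qsox2 lies 874 bp from Lhx3, and no region in the window touched its record. Both H3K9ac libraries covered more of the Lhx3 window than both H3K9cr libraries. Most of that difference lay in the region at 26201884 to 26203268, where peaks were 907, 884, 1327 and 1300 bp long. The 2 starts of Lhx3 also differed. The start inside the record had a peak in every library (29.7, 30.2, 34.6 and 33.2) and 22 CpG dinucleotides. The start at the end of the record had a peak beside it in H3K9cr replicate 2 and H3K9ac replicate 1 only, at percentiles 4.37 and 5.97 and with 11 CpG dinucleotides, whereas 89.1% of start windows with 10 to 14 had a peak in all 4 libraries. Its 250 bases were the only ones of the 13 member starts with the TATA box TATAAA, found on either strand in 11.6% of all start windows. A match to these letters is a description and not a site.

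Lhx4 (chromosome 1, 155698031 to 155751726, minus strand) had 3 shared regions. Its highest peak overlapped the bases before the annotated start in every library, at 52.7, 50.2, 53.7 and 53.8. Fold enrichments were 24.5, 22.4, 24.0 and 30.7. The summits lay at 155742836 to 155742887, before the start base at 155742027 on the minus strand. Covered length was 4516, 5065, 3382 and 5511 bp, so the 2 H3K9ac libraries lay on either side of the H3K9cr libraries. The region at the start was called as 2 peaks in replicate 1 of either mark and as 1 peak in replicate 2, and in H3K9ac replicate 1 the start base fell into a gap of 886 bp between peaks. The other regions lay inside the gene, 1 at 34.4, 35.2, 18.8 and 35.7 and the other between 5.85 and 24.8.

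Lhx6 and Lhx8 are known from the medial ganglionic eminence, where Lhx6 specifies cortical interneurons and Lhx8 cholinergic neurons. Lhx6 (chromosome 2, 36081950 to 36105992, minus strand) had 2 shared regions. The higher was inside the gene and away from its 3 annotated starts (36090588 to 36092232), at 49.9, 43.2, 39.5 and 46.0. All 3 starts lay in 1 region of 3749 bp at 38.3, 39.0, 38.7 and 44.2, although their CpG numbers were 14, 17 and 7. Covered length was 4024, 4981, 4322 and 5332 bp, higher in replicate 2 of either mark. A region with a single peak of H3K9cr replicate 2 (percentile 5.80) was the other one in this window. The record of the protein-coding Morn5 ends 2240 bp away and none of the 3 regions touched it.

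Lhx8 (chromosome 3, 154306288 to 154330560, minus strand) had 2 shared regions at and before its start, with no peak in the first 21096 bp of the record from its lower end. The highest peak stood at 44.1, 43.5, 43.3 and 47.4. The start was covered in every library, by peaks at 24.9, 28.1, 14.9 and 47.4, so the peak at the start was the highest in H3K9ac replicate 2 only. That peak was a single call of 3137 bp with its summit 22015 bp from the lower end of the record. The other lists had their highest summit at 21929 to 22008 bp, in a peak called apart from the one at the start. The value of 47.4 is therefore not that of a summit at the start. Its 250 bases held 4 CpG dinucleotides, the same number as at Lhx9. Covered length was 3906, 3871, 5155 and 5138 bp, higher in both H3K9ac libraries. Most of that difference came from the region at 154331455 to 154333995 over the noncoding gene AI606473, where peaks covered 1141, 1105, 1963 and 2001 bp.

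Isl2, a marker of motor neurons and of retinal ganglion cells (chromosome 9, 55538677 to 55547667, plus strand), had the longest region of the set, 6199 bp. Its highest peak stood at 61.6, 62.5, 58.3 and 63.2, with fold enrichments of 36.3, 37.8, 29.1 and 45.8, and covered length was 6900, 6609, 5950 and 6394 bp. The annotated start lay between 2 peaks: in 3 libraries the gap around it measured 298, 297 and 288 bp, and in H3K9cr replicate 2 a single peak ran across it. A small region at the lower end, where this plus-strand record begins, had H3K9cr peaks at percentiles 2.47 and 3.09 and no H3K9ac peak. It was, with the weak Lhx2 region, the second of 2 listed for both H3K9cr libraries alone. For H3K9ac alone there were 0. The protein-coding Scaper lies 2211 bp from Isl2, and no region in the window touched it.

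Lmx1a, which acts in the roof plate and in midbrain dopaminergic neurons (chromosome 1, 167688230 to 167848741, plus strand), is the longest member. It had 3 shared regions that covered 4352, 4449, 3404 and 4911 bp. Its highest peak did not lie at the start, where the percentiles were 44.5, 47.1, 34.6 and 44.5, but with its summit 114631 to 114762 bp into the record (167802252 to 167804006). That peak stood at 67.9, 69.9, 63.7 and 70.0, with fold enrichments of 48.8, 51.0, 36.8 and 59.2, and was the highest member peak after that of Aatf. In every library it ranked above the start by more than the 4 libraries differed at either place, and no other gene record lay in the window. In H3K9ac replicate 1 the peak at the start ended 209 bp short of the start base. The gene table gives no exons, so whether the highest peak is intronic is not stated here.

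Across the set the highest peak often lay away from the matched start. It overlapped a start window of its own gene (the 250 bases before and 50 after an annotated start) in all 4 libraries at 2 of the 9 genes with a matched start, Lhx4 and Isl2, whereas this held for 63.5% of all genes with a peak in every library and a matched start. At Isl2 that overlap was marginal: outside H3K9cr replicate 2 the highest peak ended 236, 236 and 227 bp before the start base. A matched start need not be where the record begins. That of Lhx9 lay at 138842444, and its record begins at 138848839 on the minus strand. Peaks at such record ends were not counted, and at Lhx1 the highest peak was the one at Aatf. Of the 37 shared regions, 28 overlapped the record of the member and 10 a start of it. A peak overlapped the start window in all 4 libraries at 11 of 13 starts, with a background of 58.7%, and the exceptions were the outer start of Lhx3 and the start of Lhx9. The median number of CpG dinucleotides was 14 at the member starts. Over all start windows the share with a peak in every library was 8.73% with fewer than 5 CpG dinucleotides, 54.3% with 5 to 9, 89.1% with 10 to 14 and 95.6% with 15 or more. GGGCGG was found before 8 of 13 member starts and before 42.6% of all, and the homeodomain core TAATTA before 0 of 13 and 4.31%.

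**Figure D3:**
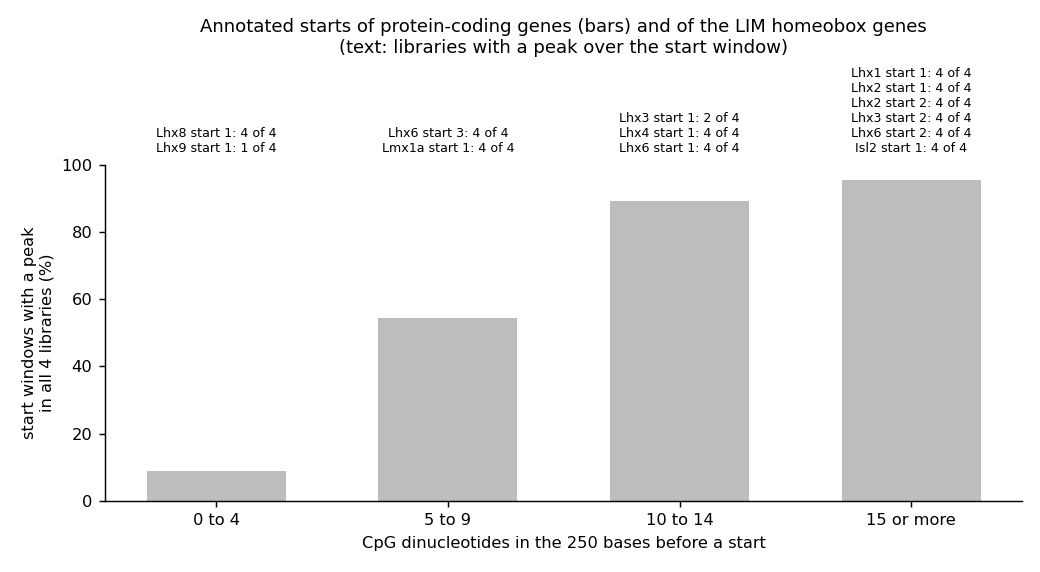
Share of start windows of protein-coding genes with a peak in all 4 libraries (grey bars, %), by the number of CpG dinucleotides in the 250 bases before the start. The text above each bar gives the member starts of that class and in how many of the 4 libraries a peak overlapped the start window. Such a peak need not reach the start base itself. Lhx8 had an overlap in 4 within a class at 8.73%, and the first start of Lhx3 in 2 within a class at 89.1%.

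The marks agreed at these genes to about the extent that replicates did. The Jaccard index, the covered base pairs 2 libraries share divided by those covered in either, was taken over all 10 windows for the 6 pairs of libraries. The H3K9cr replicates gave 0.826 and those of H3K9ac 0.775. Across marks it was 0.779 and 0.826 for libraries numbered alike, and 0.811 and 0.761 for libraries numbered differently. The lowest 3 of the 6 values all involved H3K9ac replicate 1, the shortest list. In the windows of all genes with a peak in every library the 6 values lay between 0.837 and 0.882. The lowest single value was 0.587, at Lhx8 between H3K9cr replicate 2 and H3K9ac replicate 1, and the same-mark value of 0.609 between the H3K9ac replicates at Lhx4 was next.

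**Figure D4:**
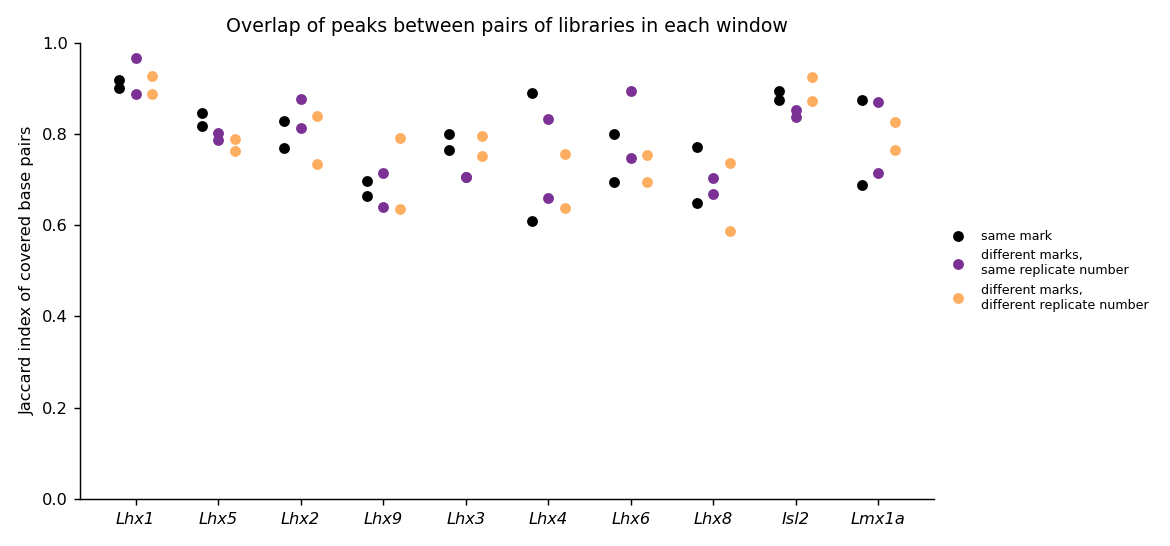
Jaccard index of covered base pairs between pairs of libraries in each window, by gene, with 1 point per pair and colours for the kind of pair. Pairs of the same mark (black) and of different marks (purple and orange) lie over the same range at most genes, and the lowest point is 0.587 at Lhx8.

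No member differed between the marks past the threshold. Covered length (log2 of base pairs, centred on each library's median) was compared by limma at the 15603 genes that all 4 lists reached, with Benjamini-Hochberg adjustment over all of them, and 0 genes passed an adjusted p of 0.05 (0.00%), although 890 genes (5.70%) had an unadjusted p under 0.05. Among the members 2 of 10 did, Lhx8 and Lhx3, both with the longer coverage for H3K9ac, a direction that 1.33% of all genes showed at that p. These p-values rest on these libraries alone, 2 a mark, with the spread of each gene drawn towards a trend fitted over all 15603 genes. For Lhx8 the means were 3888.5 bp ± 24.7 for H3K9cr and 5146.5 bp ± 12.0 for H3K9ac (SD, n = 2 each), a centred log2 difference of H3K9cr minus H3K9ac of -0.50 (SE 0.07, limma adjusted p = 0.582). For Lhx3 they were 2449 bp ± 21.2 and 2990 bp ± 226 (SD, n = 2 each), a difference of -0.38 (SE 0.10, limma adjusted p = 0.693). With peaks at a stricter -log10 q of at least 10 the Lhx8 difference turned to 0.10 (SE 0.54).

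The other members showed smaller differences in covered length, from -0.20 at Lhx6 to 0.05 at Lhx4 (limma adjusted p from 0.874 to 0.993). Single libraries moved these sizes: the Lhx6 difference was -0.0619 without H3K9cr replicate 1 and -0.333 without H3K9cr replicate 2, and that of Lhx3 was -0.252 without H3K9ac replicate 1 and -0.513 without H3K9ac replicate 2. Besides Lhx3 and Lhx8 the libraries of the marks also failed to overlap at Isl2, where both H3K9cr libraries covered more (6754.5 bp ± 206 against 6172 bp ± 314, SD, n = 2 each), which after centring left a log2 difference of 0.03 (SE 0.06, limma adjusted p = 0.927). That made 3 of 10 genes, and the marks did not overlap at 44.0% of all such genes, 41.2% with more for H3K9cr. Lhx3 and Lhx8 had the opposite direction, that of the small rest of the 44.0%. For the percentile of the highest peak the marks did not overlap at Lhx2, Lhx4 and Lhx5, again 3 of 10, with 41.1% in general. Lhx2 was higher for H3K9cr, as 32.1% of all genes were. Lhx4 and Lhx5 were higher for H3K9ac, the direction of the rest of that 41.1%.

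**Figure D5:**
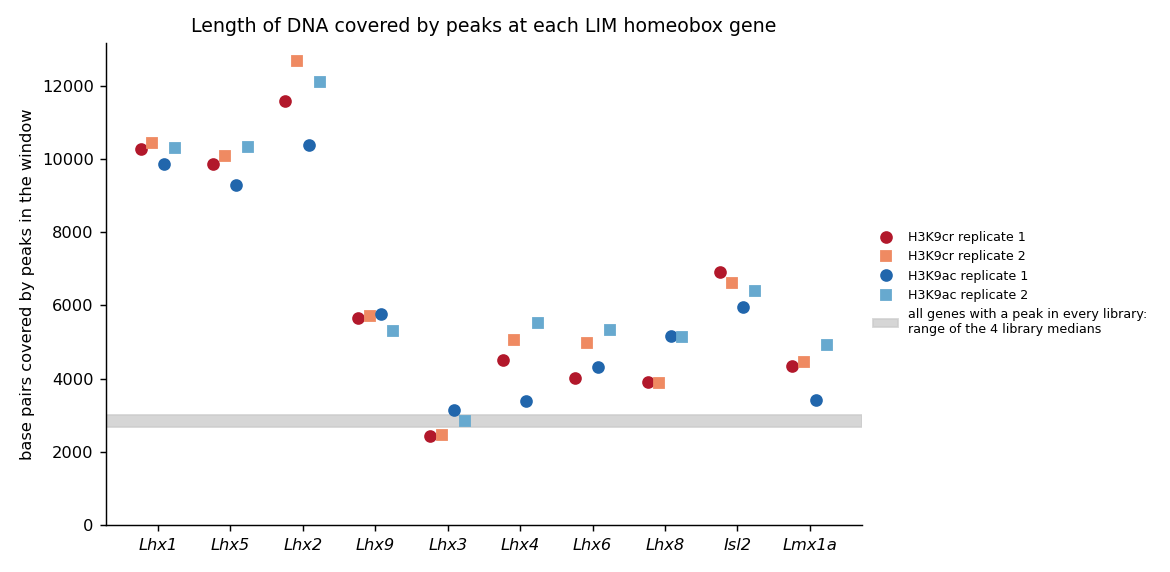
Base pairs covered by peaks in each window, by gene, with 1 point per library. The grey band spans the library medians of all protein-coding genes with a peak in every library, 2685 to 3017 bp. The H3K9ac points (blue) lie above the H3K9cr points (red) at Lhx3 and Lhx8, and below them at Isl2.

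The rank of the highest peak, as a normal score, did not differ by mark at any member in limma (differences from -0.09 at Lhx9 to 0.10 at Lhx6, adjusted p from 0.743 to 0.916), and 0 of 10 had an unadjusted p under 0.05, compared with 10.9% of all genes (1.18% with the higher rank for H3K9ac). Over all genes 73 of 15603 passed (0.468%), 72 of them with the higher rank for H3K9cr (0.461%). Unlike covered length, rank scores were not centred, and their median difference over all genes was 0.0459 towards H3K9cr. The counts by direction and the member differences in rank include that shift. At the members, too, single libraries moved the size: the Lhx6 rank difference was 0.0117 without H3K9cr replicate 1 and 0.181 without H3K9cr replicate 2, and that of Lhx9 was -0.0085 without H3K9ac replicate 2 and -0.162 without H3K9ac replicate 1. The count of genes is unstable: it was 20 without H3K9cr replicate 2, 41 without H3K9cr replicate 1, 50 without H3K9ac replicate 1 and 1209 without H3K9ac replicate 2, and no member was among the genes called in any of them.

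Genes of the Ldb1 complexes and of the LIM-only proteins were taken as a list of cofactors and partners. Of these 10 genes (Ldb1, Ldb2, Lmo1 to Lmo4, Ssbp2 to Ssbp4 and Rlim) 10 had peaks in every library, as 71.3% of all protein-coding genes did. The median percentile of their highest peak was 74.2, 74.4, 75.8 and 73.4, compared with 47.2 to 51.3 for the members. For all genes with a peak in every library it was higher in each library, at 79.7, 79.9, 77.8 and 79.3. The 4 partners named with values were chosen after these were seen, from the top and the bottom of the list. Lmo1, Lmo2, Ldb2 and Ssbp2 to Ssbp4 lay between them, at mean percentiles of 55.4 to 80.8. Ldb1, the adaptor that dimerises to bridge LIM homeodomain proteins, stood at 94.2, 93.7, 93.9 and 93.8, and Rlim, a ubiquitin ligase that acts on it, at 91.6, 91.6, 92.0 and 93.0. Lmo4, a LIM-only protein that competes for Ldb1, had 92.0, 92.3, 91.2 and 92.0, while its relative Lmo3 had 31.3, 28.8, 28.6 and 33.2. Of the further LIM homeodomain genes, Isl1 (52.7, 50.9, 50.5 and 53.3) and Lmx1b (61.4, 63.1, 55.9 and 61.9) also carried both marks in every library. Lmx1b had 8 shared regions.

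Pax genes and Nkx2 and Nkx6 genes, other developmental transcription factors, are given beside the members. Pax genes had a peak in every library at 8 of 9, with a median highest percentile of 43.7, 46.5, 43.1 and 49.3 and a median of 5 shared regions. Nkx2 and Nkx6 genes had one at 7 of 7, with 46.1, 47.9, 44.5 and 48.4 and 2 regions. The members, with 51.3, 47.2, 49.5 and 48.6 and 3 regions, were not the highest of these lists in every library: the Nkx2 and Nkx6 genes stood above them in H3K9cr replicate 2 and the Pax genes in H3K9ac replicate 2.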

How the data were processed

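The members and gene lists were chosen with earlier results of these data known. Libraries were grouped and numbered by their titles. The 2 inputs were not analysed here. The submitters' processing notes name Bowtie2 2.4.1, MACS2 2.2.7.1 and build GRCm38; the options of either program are unknown here. Each of the 4 libraries has its own deposited peak list. Per the file headers, pileup is the deposited coverage signal of a summit. The -log10 p-value, the -log10 q-value and the fold enrichment, a ratio over local background, are the authors' deposited values per peak, and were used within a list. The other deposited columns are positions and lengths in bp.

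Peaks were assigned to genes by an overlap of at least 1 bp with the RefSeq record (GRCm38.p6) extended by 10 kb. Peaks of all libraries sharing at least 1 bp were merged into regions. The text describes all 10 members and mentions every protein-coding neighbour in their windows. From the partner list 4 genes have their values printed for each library, and these were picked once the values were known. Isl1, Lmx1b and some noncoding neighbours were added. Starts and the bases before them came from RefSeq (GRCm38.p6). Marks were compared with limma 3.58.1 (R 4.3.3, moderated variance with a trend) at an adjusted p of 0.05 and tested on simulated data. Other steps used Python 3.11.15, numpy 2.4.6, pandas 2.3.3, scipy 1.17.1 and matplotlib 3.10.9. Alternatives changed the window, the peak threshold, the overlap rule, the filter, centring, the block and the libraries used. One further gene list is not reported here.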

Additional observations from a re-analysis of the deposited data

How the results depend on the processing

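The 10 members had a peak in every library, and 0 had one mark alone, under every alternative tried for these counts: a window of 2.5 kb, the stricter threshold, summits inside the window, equal numbers of peaks, and each library left out in turn. The number of genes differing in covered length was 0, except for 1 gene with summits inside the window, and was 0 with every library left out. The number differing in pileup rank, 73, became 41 with a window of 2.5 kb, 2 with no filter on genes, 165 with the replicate block, and 20 to 1209 with a library left out. With the replicate block 0 genes differed in covered length. The deviations of same-numbered libraries from their mark's mean correlated across genes at 0.128 for covered length and 0.0451 for rank, and the labels do not say that a number marks a shared batch, so the block is given here only.

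Differences of members between marks, which passed no threshold in any setting, changed sign as follows. Covered length (log2, H3K9cr minus H3K9ac) without centring was 0.0398 at Lhx1, 0.0251 at Lhx5 and 0.0423 at Lhx9. With the stricter threshold it was -0.002 at Lhx2, -0.18 at Lhx4 and 0.10 at Lhx8. With a library left out it ranged from -0.0417 to 0.0715 at Lhx2, -0.248 to 0.3501 at Lhx4, -0.169 to 0.0601 at Lhx9, -0.0155 to 0.0835 at Isl2 and -0.202 to 0.221 at Lmx1a. Rank differences (normal score) then ranged from -0.121 to 0.048 at Lhx1, -0.0058 to 0.104 at Lhx3, -0.0919 to 0.0131 at Lhx8, -0.0303 to 0.0976 at Isl2 and -0.0309 to 0.143 at Lmx1a. Among differences that kept their sign, the range with a library left out was -0.0782 to -0.0355 in covered length at Lhx1, and in rank 0.0253 to 0.121 at Lhx2, -0.0873 to -0.0267 at Lhx4 and -0.0965 to -0.0287 at Lhx5. The causes were not tested. A window of 2.5 kb, which leaves out the Aatf peak, moved the mean percentile of Lhx1 from 89.96 to 54.2, and moved no other member by more than its spread over libraries. Depth is unknown.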
